A study of Mus musculus with 2 samples.

Results

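The 9 genes described here are the main components of the MHC class II pathway of the mouse and its master regulator: H2-Aa, H2-Ab1, H2-Eb1, Cd74, H2-DMa, H2-DMb1, H2-DMb2, H2-Oa and Ciita. They were chosen by symbol from the 31253 genes of the 2 deposited count matrices, and all 9 were found and had UMIs in both libraries. Each library held live CD45+ cells, the immune cells sorted by the pan-leukocyte surface marker CD45, from B16 melanoma tumors. All mice were wild type and had been immunized subcutaneously in the left flank with irradiated B16-GM-CSF cells, a melanoma vaccine that secretes a myeloid growth factor. After 12 days B16 cells were injected into the right flank, carrying either a control hairpin (shRFP) or a hairpin against the cell-surface proteoglycan syndecan-1 (shSdc1). After a further 16 days, 6 tumors per group were pooled into 1 library. The genotype field of the shSdc1 library reads Sdc1 knock out, whereas its title and protocol name a hairpin in the injected cells. The CD45 sort leaves out melanoma cells, so these libraries hold no check of the hairpin. With 1 library per group there was no replicate, so no difference between the libraries was tested, and every interval below is a 95% interval for counting error only. The age of the mice was not given in the sources used here.

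MHC class II molecules present peptides from endocytosed protein to CD4 T cells. The alpha and beta chains (H2-Aa and H2-Ab1 for I-A, H2-Eb1 for I-E) assemble in the endoplasmic reticulum with the invariant chain, encoded by Cd74, which blocks the groove and is then cut down by endosomal proteases. H2-DM, a dimer of H2-DMa with an H2-DMb chain, exchanges the last invariant chain fragment for peptide, and H2-O, which contains H2-Oa, restrains H2-DM. Ciita is a co-activator that does not bind DNA itself. It is recruited by a complex on the X and Y boxes of class II promoters, and it is constitutive in dendritic and B cells and inducible by interferon gamma in macrophages.

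The class II genes other than Cd74 lie close together. On mm10 (GENCODE annotation), H2-Oa (34092340 to 34095234), H2-DMa (34119541 to 34139101), H2-DMb2 (34143307 to 34151555), H2-DMb1 (34153072 to 34160230), H2-Ab1 (34257689 to 34269419) and H2-Eb1 (34305867 to 34316674) are on the plus strand of chromosome 17. H2-Aa (34282744 to 34287823) lies between the latter pair on the minus strand. Ciita is on chromosome 16, from 10480059 to 10528418 on the plus strand. H2-DMb1 and H2-DMb2 are neighbouring near-copies of each other, so how reads were divided between them is uncertain.

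The promoters are shown because Ciita is recruited at the X and Y boxes of class II promoters. RefSeq promoters on GRCm38.p6 were matched for 6 of the 9 genes, with 7 entries. The stretches below run 5′ to 3′ on the gene's strand and cover 100 bases, from 130 to 31 bases before the RefSeq start. Capitals mark the Y box core TGATTGG, the X box stretch AACNGATG and the X2 element TGACGTCA, each searched on both strands. No 2 of these motifs overlapped in the stretches shown.
H2-Aa, chr17:34287854-34287953, minus strand: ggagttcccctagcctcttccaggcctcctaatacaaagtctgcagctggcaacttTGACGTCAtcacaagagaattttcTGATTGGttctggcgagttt
H2-Eb1, chr17:34305737-34305836, plus strand: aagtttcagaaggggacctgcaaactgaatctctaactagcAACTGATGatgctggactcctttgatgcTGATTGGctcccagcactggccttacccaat
H2-DMb2, chr17:34145119-34145218, plus strand: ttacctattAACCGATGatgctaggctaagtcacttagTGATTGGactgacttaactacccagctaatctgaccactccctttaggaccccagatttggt
H2-Oa, chr17:34092249-34092348, plus strand: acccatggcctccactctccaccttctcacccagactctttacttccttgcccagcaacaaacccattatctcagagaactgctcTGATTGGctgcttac

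Counted from the RefSeq start, the Y box core began 50 bases before it in H2-Aa, 61 in H2-Eb1, 92 in H2-DMb2 and 45 in H2-Oa, and 63 in H2-DMb1, whose stretch is not shown. The X box stretch began 28 bases before the Y box core in H2-Eb1 and 29 bases before it in both H2-DMb1 and H2-DMb2. In H2-Aa the X2 element began 24 bases before the Y box core. Over the 250 bases upstream of 32851 promoters, 7.23% held the Y box core, 1.98% the X box stretch and 1.55% the X2 element. The X box stretch followed by the Y box core at a distance of 20 to 40 bases occurred in 5 genes, namely H2-DMb1, H2-DMb2, H2-Eb1, H2-Eb2 and BC051142. Around the X box stretch, 67 of 80 bases (83.8%) were the same in H2-DMb1 and H2-DMb2. Neither of the H2-DMa entries held any of the motifs in its window. The letters were chosen with these promoters in view, so the matches are a description of sequence and not of binding.

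After filtering, 4983 cells of the shRFP library and 5313 of the shSdc1 library were kept, with medians of 649 and 593 UMIs per cell. Before filtering, 20 barcodes occurred in both libraries. Cells were clustered without the 9 genes and the listed pathway genes described below, and 9 classes were named from marker genes. Irf8, a listed pathway gene, was among the markers used to name conventional DC 1. Cells of the T-like class made up 1064 and 1733 (shRFP and shSdc1), monocyte/macrophage-like 3062 and 2643, conventional DC 2-like 320 and 213, NK-like 88 and 264, conventional DC 1-like 134 and 162, migratory DC-like 137 and 154, B-like 116 and 84, plasmacytoid DC-like 29 and 34, and neutrophil-like 33 and 26. The B-like class joins B and plasma cells. Levels are given as CPM, UMIs of a gene per 1000000 UMIs of the class in a library. The 3′ kit counts 1 end per molecule, so a UMI level holds no term for transcript length.

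The classical chains and Cd74 were among the most abundant transcripts of the sorted CD45+ cells. The 9 genes held 66456 of 3859226 UMIs in the shRFP library (1.72%) and 62666 of 4015851 in the shSdc1 library (1.56%). Cd74 ranked 7 and 6 among all genes, H2-Ab1 23 and 33, H2-Aa 28 and 35, and H2-Eb1 33 and 43. At the other end, Ciita had 143 and 180 UMIs, H2-DMb2 218 and 146, and H2-Oa 88 and 83 in all kept cells. The monocyte/macrophage-like cells held 45.1% of all class II UMIs in each library, the conventional DC 2-like cells 31.4% and 23.3%, and the conventional DC 1-like cells 14.7% and 21.3%. Conventional DC 2-like cells were 6.42% and 4.01% of cells and monocyte/macrophage-like cells 61.4% and 49.7%.

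The level was graded across the classes. For the 9 genes together, conventional DC 1-like cells had 66748 CPM (shRFP, interval 65433 to 68083) and 61604 CPM (shSdc1, 60562 to 62659). Conventional DC 2-like cells had 64491 CPM (63619 to 65372) and 66136 CPM (65068 to 67218). The order of these 2 classes was opposite in the 2 libraries, with the intervals apart in each. Migratory DC-like cells came next with 29628 and 34660 CPM, followed by B-like cells with 26124 and 19519 CPM. Monocyte/macrophage-like cells had 11547 and 13145 CPM. Plasmacytoid DC-like cells had 21394 and 10467 CPM from 391 and 189 UMIs, and neutrophil-like cells 17803 and 4348 CPM from 359 and 55 UMIs, so the place of both in the order differed between the libraries. A single cell held 40.4% and 41.8% of the class II UMIs of the neutrophil-like class, and after thinning to 300 UMIs 58.1% and 73.1% of its cells held none. Conventional DC 2 markers were at 1934 and 1265 CPM in that class, with 1 and 3 of 7 at 0, and their part in its level was not tested. In the shRFP library the intervals of the plasmacytoid DC-like and neutrophil-like cells overlapped. Each other pair of neighbours in either library had intervals apart.

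**Figure D1:**
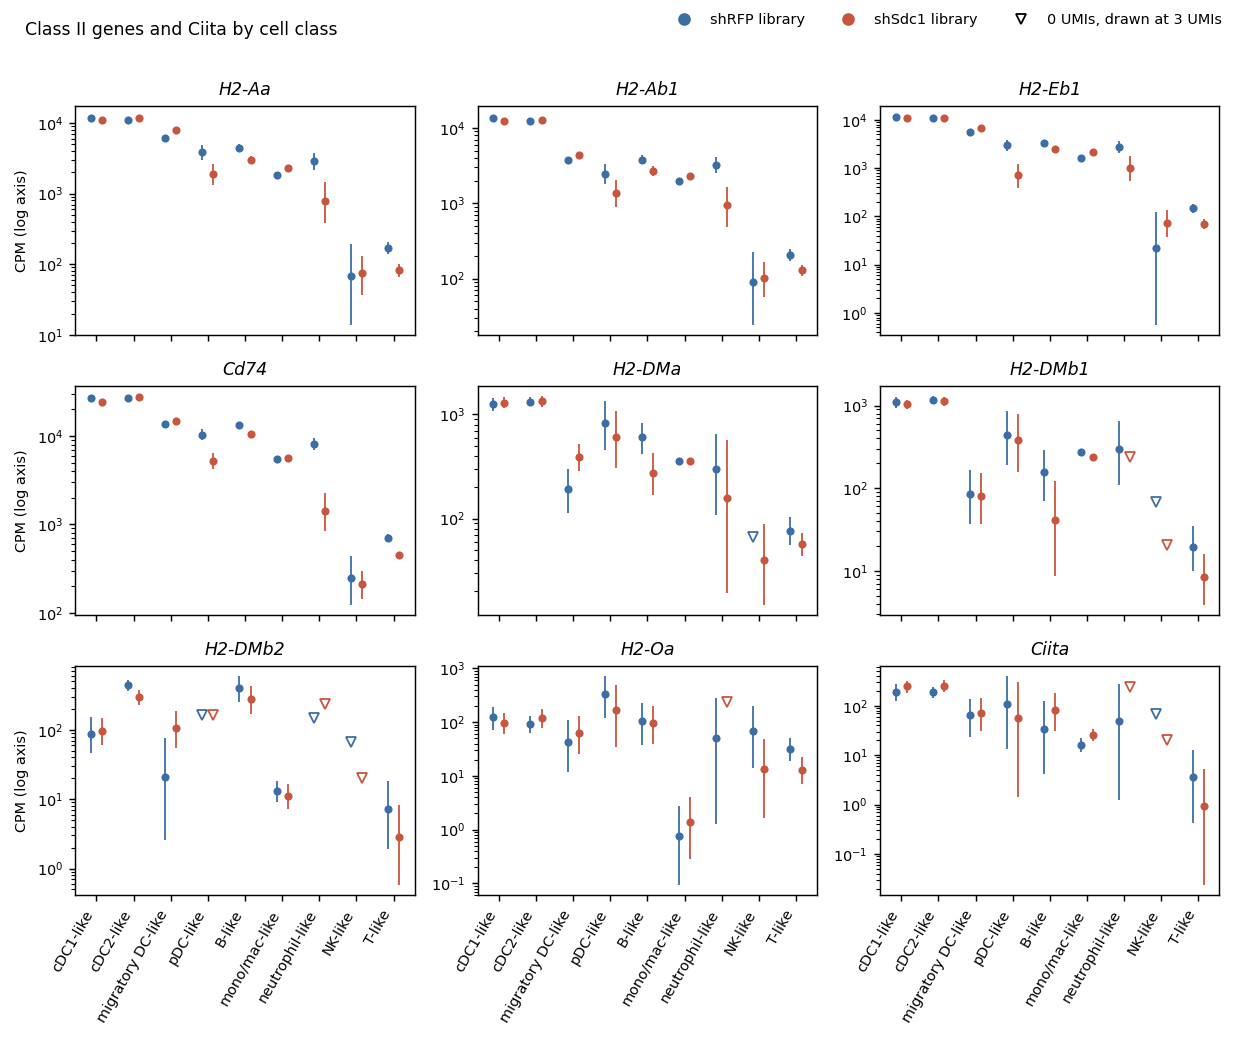
Level of each of the 9 genes (vertical, CPM on a log axis) in the 9 cell classes (horizontal) of the shRFP (blue) and shSdc1 (red) libraries, with 95% Poisson intervals for counting error. H2-Aa, H2-Ab1, H2-Eb1 and Cd74 are highest in both conventional DC classes, H2-Oa is near 0 in monocyte/macrophage-like cells (2 and 3 UMIs), and open triangles mark classes with 0 UMIs, drawn at the level of 3 UMIs.

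T-like and NK-like cells serve as a reference for these levels, since mouse T and NK cells do not normally make class II. The 9 genes stood at 1367 and 812 CPM in T-like cells and at 492 and 512 CPM in NK-like cells. The T-like level was uneven. The cluster led by Tnfrsf4, Ikzf2 and Ctla4 held 541 of the 766 and 663 of the 866 T-like class II UMIs, at 2484 and 1300 CPM. The Cd8a-led cluster had 561 and 359 CPM and the Lef1-led cluster 795 and 408 CPM. Monocyte/macrophage-like cells were 8.45-fold (7.86 to 9.09) and 16.2-fold (15.1 to 17.3) above the T-like cells of the same library. After each cell was thinned to 300 UMIs, 58.1% and 59.9% of monocyte/macrophage-like cells held a class II UMI, against 20.2% and 15.6% of T-like cells and 14.5% and 11.3% of NK-like cells. Without thinning the shares were 71.0% and 71.8% in monocyte/macrophage-like and 25.8% and 23.0% in T-like cells, at median depths of 718 and 668 UMIs against 394 and 436. T-like cells also held 13 monocyte and macrophage markers at a summed 892 and 894 CPM, with 2 of 13 at 0 in each library. Their part in the class II UMIs of T-like cells was not tested.

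Single cells differed in how evenly they carried these transcripts. Of 300 UMIs, the median conventional DC 1-like cell held 20 and 18 class II UMIs and a 10th percentile of 10 and 11. The median conventional DC 2-like cell held 19 and 20. B-like cells were lower, with medians of 8 and 7, a 10th percentile of 3 and 1 and a 90th percentile of 13 and 15. From the 10th to the 90th percentile, conventional DC 2-like cells spanned 7 to 30 and 5 to 30. Migratory DC-like cells spanned 0 to 21 and 0 to 24, about as wide but lower. Their median was 4 in both libraries, 15.9% and 12.8% of them held none, and 30.3% and 35.6% held 10 or more, which reached the range of the conventional DC. The median monocyte/macrophage-like cell held 1 class II UMI, and 11.9% and 15.9% held 10 or more.

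**Figure D2:**
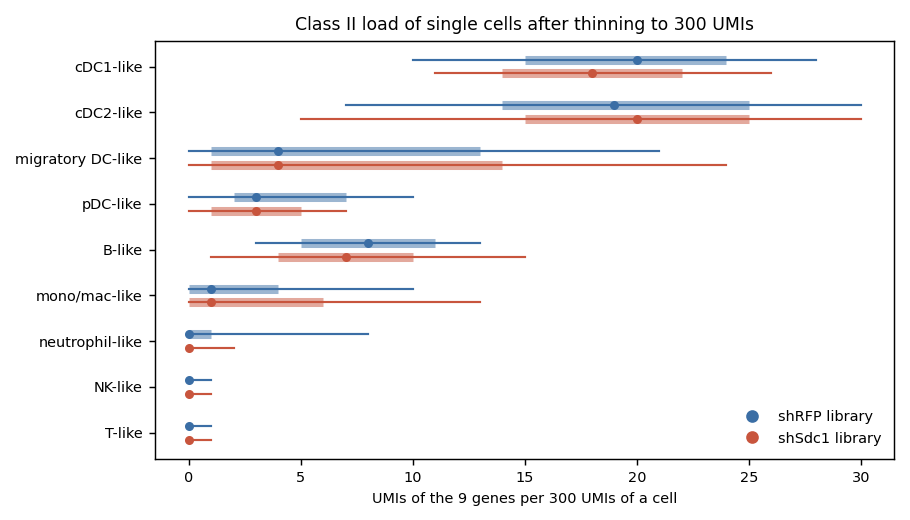
UMIs of the 9 genes in single cells after thinning every cell to 300 UMIs (horizontal), by class and library, with the median (point), the interquartile range (thick bar) and the 10th to 90th percentile (line); cells with fewer than 300 UMIs are left out. Conventional DC have medians of 18 to 20, whereas migratory DC-like cells have a median of 4 and reach 21 and 24 at the 90th percentile.

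H2-Aa and Cd74 ranked the 9 classes as the sum did in both libraries, and H2-Ab1 and H2-Eb1 did so with some neighbouring classes exchanged. H2-Ab1, the I-A beta chain, had 13751 and 12411 CPM in conventional DC 1-like cells, 12509 and 12964 in conventional DC 2-like cells, 3801 and 2700 in B-like cells, 3715 and 4386 in migratory DC-like cells and 1950 and 2311 in monocyte/macrophage-like cells. H2-Aa, the I-A alpha chain that pairs with it, had 11940 and 10991 CPM in conventional DC 1-like, 10983 and 11781 in conventional DC 2-like, 6199 and 7971 in migratory DC-like, 4472 and 3003 in B-like and 1829 and 2314 in monocyte/macrophage-like cells. H2-Eb1, the I-E beta chain, had 11381 and 10839 CPM in conventional DC 1-like, 10936 and 10690 in conventional DC 2-like, 5711 and 6699 in migratory DC-like, 3285 and 2466 in B-like and 1645 and 2175 in monocyte/macrophage-like cells. Thus H2-Aa and H2-Eb1 placed migratory DC-like above B-like cells in both libraries, while for H2-Ab1 the 2 classes had overlapping intervals in the shRFP library.

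The balance of the chains in migratory DC-like cells differed from that in conventional DC. There the shRFP library held 584 H2-Aa and 350 H2-Ab1 UMIs, a ratio of 1.67 (1.46 to 1.91), and the shSdc1 library 896 and 493, a ratio of 1.82 (1.63 to 2.03). In conventional DC 1-like cells the same ratio was 0.868 (0.814 to 0.926) and 0.886 (0.838 to 0.936), and in conventional DC 2-like cells 0.878 (0.839 to 0.919) and 0.909 (0.861 to 0.959). H2-Eb1 showed the same balance as H2-Aa. Its ratio to H2-Ab1 was 1.54 (1.34 to 1.76) and 1.53 (1.36 to 1.72) in migratory DC-like cells but 0.828 and 0.873 in conventional DC 1-like cells. So conventional DC 2-like cells exceeded migratory DC-like cells 3.37-fold (3.02 to 3.77) and 2.96-fold (2.69 to 3.26) in H2-Ab1 but only 1.77-fold (1.62 to 1.94) and 1.48-fold (1.37 to 1.60) in H2-Aa. Both libraries showed this with intervals that did not overlap between the classes. Monocyte/macrophage-like cells stood between, with H2-Aa to H2-Ab1 ratios of 0.938 and 1.001, and B-like cells had 1.18 (0.980 to 1.41) and 1.11 (0.913 to 1.36). Plasmacytoid DC-like cells had more H2-Aa than H2-Ab1 UMIs as well, 71 to 45 (1.58, 1.07 to 2.35) and 34 to 25 (1.36, 0.788 to 2.38), with intervals that overlapped those of migratory DC-like cells. Summed markers of the monocyte and macrophage list were at 594 and 836 CPM in migratory DC-like cells, with 5 and 2 of 13 at 0.

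**Figure D3:**
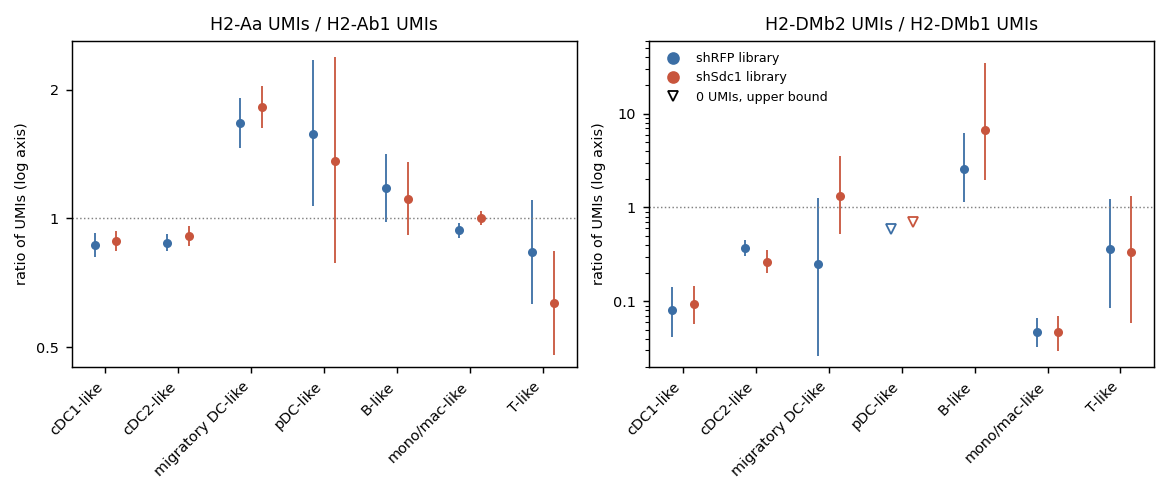
Ratio of H2-Aa to H2-Ab1 UMIs (left) and of H2-DMb2 to H2-DMb1 UMIs (right), on log axes, in 7 classes of the shRFP (blue) and shSdc1 (red) libraries with 95% intervals for counting error; triangles mark upper bounds where the first gene had 0 UMIs. Migratory DC-like cells have H2-Aa to H2-Ab1 ratios of 1.67 and 1.82, and B-like cells have H2-DMb2 to H2-DMb1 ratios of 2.56 and 6.67.

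Cd74, the invariant chain, was the most abundant of the 9 genes in every class. It had 26917 and 24592 CPM in conventional DC 1-like, 26839 and 27567 in conventional DC 2-like, 13598 and 14892 in migratory DC-like, 13277 and 10579 in B-like and 5459 and 5712 in monocyte/macrophage-like cells. Its share of the class II UMIs was 40.3% and 39.9% in conventional DC 1-like and 41.6% and 41.7% in conventional DC 2-like cells. In B-like cells it was larger, 50.8% and 54.2%. Monocyte/macrophage-like cells had 47.3% and 43.5%.

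The peptide exchange factor H2-DM was low in migratory DC-like cells relative to their chains. H2-DMa had 1253 and 1295 CPM in conventional DC 1-like, 1332 and 1336 in conventional DC 2-like, 358 and 356 in monocyte/macrophage-like, 602 and 275 in B-like and 191 and 391 CPM in migratory DC-like cells. Conventional DC 2-like cells thus had 6.97-fold (4.36 to 11.9) and 3.41-fold (2.48 to 4.80) more H2-DMa than migratory DC-like cells. H2-DMb1 had 1103 and 1036 CPM in conventional DC 1-like, 1174 and 1128 in conventional DC 2-like and 276 and 239 in monocyte/macrophage-like cells. In migratory DC-like cells H2-DMb1 had only 8 and 9 UMIs (84.9 and 80.1 CPM), which was 13.8-fold (6.95 to 32.3) and 14.1-fold (7.30 to 31.2) below conventional DC 2-like cells. Monocyte/macrophage-like cells, with less H2-Aa and H2-Eb1 than migratory DC-like cells, had more H2-DMb1 than they did.

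The balance of the 2 H2-DMb genes differed by class. H2-DMb2 had 13 and 21 UMIs (88.5 and 97.1 CPM) in conventional DC 1-like cells but 142 and 66 UMIs (438.8 and 299.0 CPM) in conventional DC 2-like cells, 4.96-fold (2.81 to 9.54) and 3.08-fold (1.86 to 5.30) more, whereas H2-DMb1 differed 1.06-fold (0.88 to 1.29) and 1.09-fold (0.91 to 1.31) between the same classes. In B-like cells H2-DMb2 exceeded H2-DMb1, with 23 against 9 UMIs and 20 against 3 UMIs, ratios of 2.56 (1.14 to 6.28) and 6.67 (1.98 to 35.0). The ratio of H2-DMb2 to H2-DMb1 was 0.374 and 0.265 in conventional DC 2-like, 0.0802 and 0.0938 in conventional DC 1-like and 0.0476 and 0.0467 in monocyte/macrophage-like cells. Conventional DC 2-like and B-like cells had H2-DMb2 levels 1.11-fold (0.71 to 1.81) and 1.09-fold (0.65 to 1.89) apart, a difference within counting error, while their H2-DMb1 levels differed 7.59-fold (3.95 to 16.7) and 27.3-fold (9.23 to 133). Plasmacytoid DC-like cells had 0 H2-DMb2 UMIs in either library, which allows up to 164 and 166 CPM, and 8 and 7 H2-DMb1 UMIs.

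H2-Oa, the alpha chain of the H2-DM inhibitor, did not follow the other genes. It had 18 and 21 UMIs (123 and 97.1 CPM) in conventional DC 1-like, 30 and 26 (92.7 and 118 CPM) in conventional DC 2-like, 4 and 7 (42.5 and 62.3 CPM) in migratory DC-like and 6 and 7 (103 and 96.4 CPM) in B-like cells. Plasmacytoid DC-like cells had 6 and 3 UMIs (328 and 166 CPM), with intervals of 121 to 715 and 34.3 to 486 CPM. In monocyte/macrophage-like cells, which held 45.1% of all class II UMIs, only 2 and 3 H2-Oa UMIs were counted (0.771 and 1.40 CPM). T-like cells had 18 and 14 H2-Oa UMIs (32.1 and 13.1 CPM) and NK-like cells 3 and 2. The ratio of H2-Oa to H2-DMa was therefore 0.419 (0.227 to 0.741) and 0.230 (0.119 to 0.415) in T-like cells against 0.00216 and 0.00392 in monocyte/macrophage-like cells. The 8 B cell markers summed to 280 and 270 CPM in T-like cells, with 1 and 3 of the 8 at 0, and their part in the H2-Oa of T-like cells was not tested.

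Ciita, the master regulator, was scarce but graded in the same direction as its targets. Conventional DC 1-like cells had 28 and 53 UMIs (191 and 245 CPM) and conventional DC 2-like cells 60 and 56 (185 and 254 CPM), with overlapping intervals. Migratory DC-like cells had 6 and 8 UMIs (63.7 and 71.2 CPM) and B-like cells 2 and 6 (34.4 and 82.6 CPM). Monocyte/macrophage-like cells had 42 and 55 UMIs (16.2 and 25.6 CPM), so conventional DC 2-like cells were 11.4-fold (7.59 to 17.4) and 9.91-fold (6.71 to 14.7) above them. T-like cells had 2 and 1 UMIs and NK-like cells 0, which allows up to 67.1 and 20.2 CPM. At most 25.3% of the cells of any class held a Ciita UMI before thinning and at most 8.18% after it, so single cells could not be sorted by it at this depth.

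Across the 41 combinations of cluster and library with at least 30 cells, the summed class II level correlated with Cd74 (r = 0.996), H2-Ab1 (r = 0.994), H2-Eb1 (r = 0.990) and H2-Aa (r = 0.987), which make up most of that sum. For H2-DMb1 r was 0.908, for H2-DMa 0.894, for Ciita 0.787, for H2-DMb2 0.624 and for H2-Oa 0.158. Among 5379 other genes, those most like the sum were Cst3 (r = 0.876), Spi1 (0.876), Plekho1 (0.875), Ctsh (0.871) and Csf2ra (0.869). Cst3 encodes a cathepsin inhibitor, Spi1 the myeloid transcription factor PU.1, Ctsh a lysosomal protease and Csf2ra a chain of the GM-CSF receptor. The genes most like Ciita were Cbfa2t3 (0.797), Batf3 (0.774), Cst3 (0.771), Wdfy4 (0.770) and Rnase6 (0.764), among which Batf3 and Wdfy4 are known from conventional DC 1. Those most like H2-Oa were Bcl11a (0.790), Tspan13 (0.752), Cyfip2 (0.741), Fchsd2 (0.727) and P2ry10 (0.724), and Bcl11a is a transcription factor of B cells and plasmacytoid DC. These r values describe points that share 2 libraries and differ in depth. With a pseudocount of 1 in place of 10, r between H2-Oa and the sum was 0.0235. Of the genes named, Cst3 and Spi1 then stayed among the 5 most like the sum, Batf3, Cst3 and Rnase6 among those most like Ciita, and only Cyfip2 among those most like H2-Oa.

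Between the libraries, the 9 genes together were at a ratio of 0.906 (0.896 to 0.916, shSdc1 over shRFP) in all kept cells. A difference of at least 1.5-fold was shown by 1 of the 9 genes, H2-DMb2 (56.5 and 36.4 CPM, ratio 0.644, 0.518 to 0.797), against 21.2% of the 10715 genes with at least 20 UMIs, either way. The median log2 ratio was -0.14 over the 9 genes and 0.14 over all genes. Composition differed as well, since conventional DC 2-like cells, which held 65.1% and 45.2% of the H2-DMb2 UMIs, were 320 and 213 of the kept cells. Within conventional DC 2-like cells the H2-DMb2 ratio was 0.681 (0.501 to 0.919).

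Within the conventional DC, the summed levels of the 9 genes were close in the 2 libraries. The summed ratio was 0.923 (0.899 to 0.947) in conventional DC 1-like and 1.03 (1.004 to 1.05) in conventional DC 2-like cells. All 9 genes had at least 20 UMIs in both classes and none differed 1.5-fold, where 27.3% of 2781 genes in the former and 26.3% of 3975 genes in the latter did. The Ciita ratio was 1.29 (0.80 to 2.11) and 1.37 (0.93 to 2.003). With edgeR's TMM scaling the conventional DC 2-like sum turned to 0.980.

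The sum differed more in other classes. In migratory DC-like cells it was 1.17 (1.11 to 1.23) and in B-like cells 0.747 (0.694 to 0.804). Of 5 genes with at least 20 UMIs in migratory DC-like cells, 1 differed 1.5-fold, H2-DMa, with 18 and 44 UMIs and a ratio of 2.05 (1.16 to 3.77), against 28.6% of 1579 genes. H2-Aa had 1.29 (1.16 to 1.43) there and Cd74 1.10 (1.02 to 1.18). Among cells with at least 500 genes the migratory DC-like sum was at 1.01. Of 6 such genes in B-like cells 1 was lower by that fold, H2-DMa, with 35 and 20 UMIs and a ratio of 0.458 (0.250 to 0.815), against 41.9% of 862 genes. Plasma cell markers stood at 3526 and 15042 CPM in B-like cells, and immunoglobulin genes took 4.55% and 21.3% of their UMIs. Monocyte and macrophage markers were at 5074 and 6970 CPM in the same class, with 2 and 3 of 13 at 0. The part of these values in the class II ratio of B-like cells was tested only as follows. Over the UMIs outside immunoglobulin genes the B-like ratio was 0.907, with TMM scaling 0.957 (where Cd74 turned from 0.797 to 1.02), and without a sub-cluster of 12 and 6 cells led by Spp1 and other macrophage genes it was 0.825. Plasmacytoid DC-like and neutrophil-like cells had ratios of 0.489 (0.409 to 0.583) and 0.244 (0.180 to 0.325), from 29 and 34 and from 33 and 26 cells. In the neutrophil-like class T cell markers were at 149 and 1423 CPM, with 4 and 0 of 7 at 0, beside the single cells and DC markers given above. In the plasmacytoid DC-like class 4 of 5 measured genes differed 1.5-fold, against 31.8% of 283 genes. In the neutrophil-like class 4 of 4 did, against 40.1% of 279 genes. In NK-like cells only Cd74 was measured, and it differed less than 1.5-fold (0.850), where 34.3% of 1731 genes did.

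**Figure D4:**
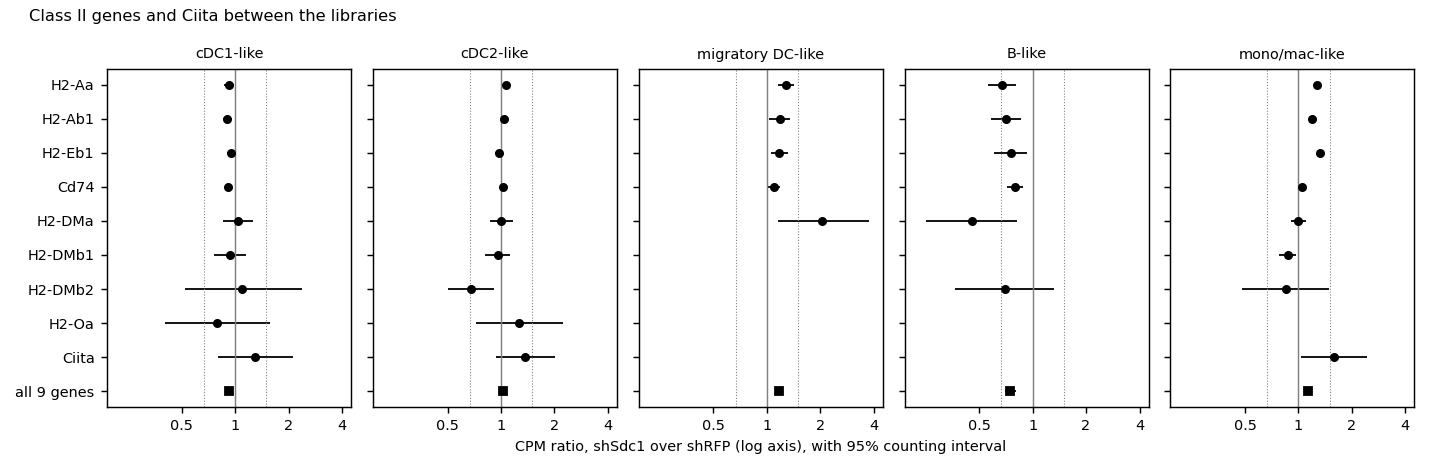
Ratio of CPM in the shSdc1 over the shRFP library (horizontal, log axis) for each gene with at least 20 UMIs and for the 9 genes together, in 5 classes, with 95% intervals for counting error; dotted lines mark 1.5-fold either way. The sum is 0.923, 1.03, 1.17, 0.747 and 1.14 from left to right, and Ciita in monocyte/macrophage-like cells lies at 1.58 (1.04 to 2.42).

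Monocyte/macrophage-like cells had 1.14-fold (1.12 to 1.16) the class II level in the shSdc1 library. Among the abundant genes the chains were further from 1 than Cd74, with H2-Eb1 at 1.32 (1.27 to 1.38), H2-Aa at 1.26 (1.22 to 1.32) and H2-Ab1 at 1.19 (1.14 to 1.23). Cd74 was at 1.05 (1.02 to 1.07), and at 0.987 with TMM scaling. H2-DMa was at 0.995 (0.903 to 1.10), H2-DMb1 at 0.867 (0.773 to 0.973) and H2-DMb2 at 0.852 (0.483 to 1.48). Ciita, with 42 and 55 UMIs, was at 1.58 (1.04 to 2.42), the only 1 of 8 measured genes past 1.5-fold, against 22.5% of 9332 genes. It was under that fold with TMM scaling (1.49), without doublet removal (1.48) and with class II genes kept in the clustering (1.46). The median log2 ratio was 0.16 over the 8 genes and 0.08 over all genes. In the same class conventional DC 1 markers were at 395 and 546 CPM (1 and 0 of 7 at 0), conventional DC 2 markers at 812 and 916 CPM (0 of 7 at 0 in each), plasmacytoid DC markers at 495 and 737 CPM (2 and 1 of 7 at 0) and the class's own markers at 24156 and 32374 CPM. Their part in the class II ratio was not tested.

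The class is made of 11 clusters whose class II levels spanned a wide range and whose shares differed between the libraries. The Retnla, Ear2 and Lyz1-led cluster (80 and 142 cells) was highest, with 38344 and 38091 CPM, a ratio of 0.993 (0.9498 to 1.04). It also had the highest conventional DC 2 markers of the 11 clusters, at 1803 and 1600 CPM with 1 and 0 of 7 at 0, and their part in its level was not tested. The Gdf15-led cluster (192 and 228 cells) was lowest, with 4855 and 6955 CPM. The Hp, Ifitm6 and Chil3-led cluster, whose genes mark young monocytes, had 8369 CPM in 500 shRFP cells and 20184 CPM in 101 shSdc1 cells, a ratio of 2.41 (2.24 to 2.59). In it H2-Eb1 was at 3.55 (2.91 to 4.34), Cd74 at 2.30 (2.06 to 2.56) and H2-DMb1 at 1.21 (0.72 to 1.94). Conventional DC 2 markers there were at 600 and 851 CPM, with Cd209a at 5 and 0 UMIs, and conventional DC 1 markers at 493 and 719 CPM.

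The cluster of complement-rich macrophages led by Ccl8 and Stab1 (370 and 815 cells) had 6101 and 9593 CPM, a ratio of 1.57 (1.504 to 1.64). The interferon-stimulated cluster led by Ifit3 (150 and 177 cells) had 12208 and 18702 CPM, a ratio of 1.53 (1.44 to 1.63). There conventional DC 2 markers were at 640 and 920 CPM (2 and 1 of 7 at 0), conventional DC 1 markers at 389 and 638 CPM (3 and 1 of 7 at 0) and Cd209a at 0 and 6 UMIs. In the Klra17-led cluster conventional DC 2 markers were at 644 and 1004 CPM, with 2 of 7 at 0 in each library. The part of these markers in the cluster ratios was not tested. Other ratios above 1 were 1.43 (1.34 to 1.53) in the Klra17-led and 1.43 (1.33 to 1.54) in the Gdf15-led cluster, 1.29 (1.17 to 1.41) in the F10-led and 1.25 (1.18 to 1.32) in the Hspb1-led cluster. The Cxcl3 and Il1a-led cluster (575 and 224 cells) was lower in shSdc1, at 13313 and 11193 CPM and a ratio of 0.841 (0.8004 to 0.883), as was the Ctsk and Mmp9-led cluster at 0.868. The Sdc1 and Ero1l-led cluster had 0.951 (0.847 to 1.07). In all, 7 of 11 clusters had intervals above 1, 2 below 1 and 2 that held 1. With the clusters weighted alike in both libraries the ratio for the class was 1.25, and leaving out each cluster in turn gave 1.08 to 1.204. Cells with at least 500 genes gave 1.05. At a coarser resolution of 1, which was seen before the main resolution of 1.5 was chosen, 4 of 6 clusters had intervals above 1.

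**Figure D5:**
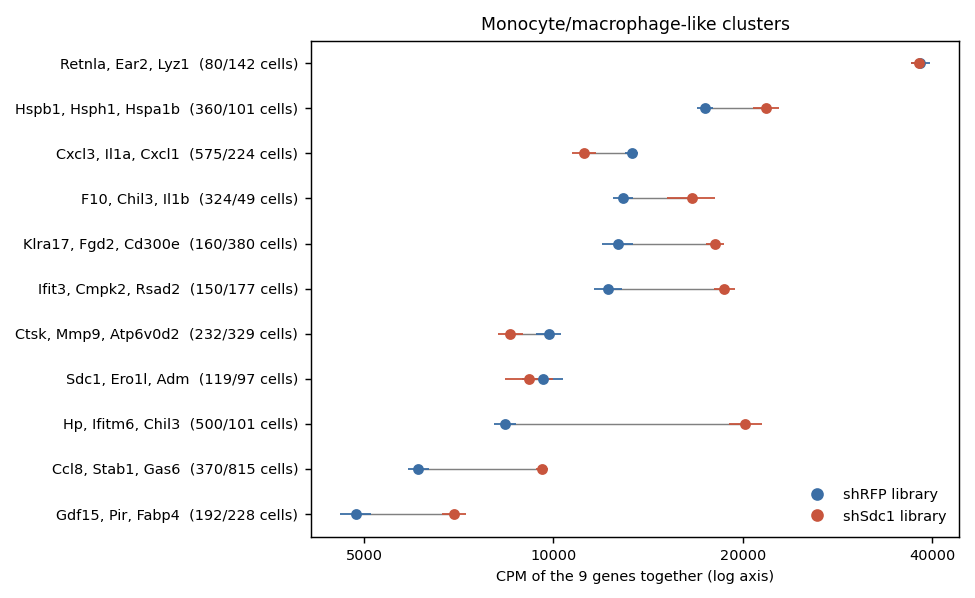
CPM of the 9 genes together (horizontal, log axis) in the 11 monocyte/macrophage-like clusters, named by their leading genes with the number of cells in the shRFP and shSdc1 libraries, with 95% intervals for counting error. The Retnla-led cluster has 38344 and 38091 CPM, and the widest gap is in the Hp-led cluster, at 8369 and 20184 CPM.

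T-like cells had a lower class II level in the shSdc1 library, at a ratio of 0.594 (0.539 to 0.656). There 6 of 7 measured genes were at least 1.5-fold lower, against 20.4% of 7658 genes either way, among them H2-Aa (0.477), H2-Eb1 (0.475) and Cd74 (0.639). These T-like levels are those given above as a reference, and most of the UMIs came from the Tnfrsf4-led cluster.

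The other genes of the pathway were read from lists of invariant chain processing, regulation, surface turnover, co-stimulation and remaining class II genes, of which 29 symbols were in the files. In monocyte/macrophage-like cells all 5 processing genes had at least 20 UMIs and 1 was 1.5-fold higher, where 22.5% of all genes of the class differed by that fold either way. It was the lysosomal protease Ctsb (3453 and 5227 CPM, ratio 1.51, 1.47 to 1.56). Close to it were Ctss, a protease that cuts the invariant chain, at 1684 and 2511 CPM (1.49, 1.43 to 1.55), Ctsd at 1.49 and Lgmn at 1.41, while Ctsl was at 0.955. Of 14 measured regulators 1 was 1.5-fold higher, against the same 22.5%, and it is not among those named here. Irf8 was at 1.37, Irf1 at 1.23 and Spi1 at 1.004. The interferon gamma receptor chains Ifngr1 and Ifngr2 had 1.16 and 1.18. Of 4 surface turnover genes 1 was 1.5-fold lower, against the same 22.5%, and it is not among those named here. Cd83, which keeps class II at the surface, was at 0.707 and the ligase gene Marchf1, which removes class II, at 1.13. Of 3 co-stimulation genes 1 passed the fold, against the same 22.5%, and it was Cd80, which was lower (40.9 and 20.01 CPM, ratio 0.489, 0.335 to 0.704), and Cd86 had 0.694.

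Among the dendritic classes, Cd80 was at 0.505 (0.22 to 1.07) in conventional DC 2-like and 0.322 (0.14 to 0.69) in migratory DC-like cells. H2-Ob, the partner chain of H2-Oa, had 225 and 148 CPM in conventional DC 1-like and 310 and 220 CPM in B-like cells, and 5 and 1 UMIs in monocyte/macrophage-like cells. It was thus scarce in the same class as H2-Oa. In each conventional DC class 1 gene of the remaining class II list was measured, and it was at least 1.5-fold lower in shSdc1. Of all genes, 27.3% in conventional DC 1-like and 26.3% in conventional DC 2-like cells differed by that fold either way. H2-Eb2, a second I-E beta gene, had 202 and 89.0 CPM in migratory DC-like cells from 19 and 10 of its 33 and 17 UMIs in all kept cells. In conventional DC 1-like cells it had 0 and 1 UMIs.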

How the data were processed

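The authors deposited raw UMI counts per gene and barcode, from Cell Ranger 6.1.1 (per the file headers) and mm10 (per the submitters' processing notes). Which annotation release was used was not given in the sources used here. Libraries came from the 10x 3′ v3.1 kit per the labels' protocols. Barcodes with at least 200 genes and under 10% mitochondrial UMIs were used, and the top Scrublet scores (242 and 263 barcodes) were removed as likely doublets, because the automatic threshold marked 1 in each library. Cells were clustered (scanpy 1.11.5, leidenalg 0.10.2, 30 components, 15 neighbours) without class II and pathway genes. Resolution 1.5 was chosen after resolution 1 was seen to join Cd209a-led with Retnla-led cells. A class was named when its markers had a mean log2 fold of at least 0.5, with 3 or more at 2-fold.

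UMIs were summed per class and library. Levels have exact Poisson, shares exact Clopper-Pearson and ratios exact conditional binomial 95% intervals; PCR and cell sampling error are not covered, and a count of 0 was given a limit of 3 counts. A gene was measured if its UMIs summed to 20 or more over the libraries, and counted as different at 1.5-fold. Scripts were tested on simulated data. The members and lists were chosen with earlier results of these data known. The 9 genes are named throughout, pathway genes with at least 20 UMIs in a class, and the 5 genes with the highest Pearson r of log2(CPM + 10), among genes with at least 200 UMIs. H2-Ob and H2-Eb2 are also named below 20 UMIs, which was chosen after their values were seen. Results for some pathway genes are not reported here. TMM scaling used edgeR 4.0.16. Gene positions come from the GENCODE annotation of GRCm38.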

Additional observations from a re-analysis of the deposited data

Results flagged for a closer look

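The summed class II ratio between the libraries (shSdc1 over shRFP) lay on opposite sides of 1 in different classes, and these differences were not tested. It was 0.747 in B-like and 1.14 in monocyte/macrophage-like cells, 0.656 times as large in the former. It was 1.17 in migratory DC-like and 0.923 in conventional DC 1-like cells, 1.27 times as large in the former. Within the monocyte/macrophage-like class it was 2.41 in the Hp-led and 0.841 in the Cxcl3-led cluster, 2.87 times as large in the former. After thinning, the median cell of the Hp-led cluster held 0 and 1 class II UMIs (shRFP and shSdc1), and the 90th percentile was 8 and 23.

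Class II UMIs were also present in barcodes that the comparisons do not use. Barcodes with fewer than 200 genes, 530 in the shRFP and 276 in the shSdc1 library, held the 9 genes at 8097 CPM (1044 UMIs) and 7103 CPM (493 UMIs). All kept cells had 17220 and 15605 CPM.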

How the results depend on the processing

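No paired analysis was possible because each group is 1 library. Results were recomputed with 1 choice changed at a time, giving 535 values, of which 24 are shares of thinned cells and the others ratios or counts. None was labelled a reversal, but a ratio between the libraries could be labelled so only if its main value was past 1.5-fold. No recomputed summed ratio was. That of conventional DC 2-like cells crossed 1, from 1.03 to 0.980, 0.973 and 0.968 in settings given below. Of all values, 435 moved by less than their counting interval (for counts, less than 1.5 times), and the cause of the other moves was not tested. The ratios that follow are shSdc1 over shRFP. With edgeR TMM factors, which moved the log2 ratio by -0.14 in all kept cells and by 0.36 in B-like cells, the summed ratio was 0.820 in all kept cells, 1.07 in monocyte/macrophage-like, 0.9497 in conventional DC 1-like, 0.980 in conventional DC 2-like and 0.957 in B-like cells. As a mean over cells it was 0.879, 1.203, 0.954, 1.002 and 0.860 in the same order. Among cells with at least 500 genes it was 1.05 in monocyte/macrophage-like, 1.07 in conventional DC 2-like, 1.01 in migratory DC-like and 0.673 in B-like cells. With class II and pathway genes kept in the clustering it was 1.104 in monocyte/macrophage-like and 0.973 in conventional DC 2-like cells, at Leiden resolution 1 it was 1.105 and 0.968, and without doublet removal 1.105 in the former. With clusters weighted alike it was 1.25 in monocyte/macrophage-like cells. In B-like cells it was 0.825 without the Spp1-led sub-cluster and 0.907 over UMIs outside immunoglobulin genes. Of the 8 measured genes in monocyte/macrophage-like cells, 1 was past 1.5-fold, against 0 with TMM factors, without doublet removal or with class II genes kept in the clustering, and 2 with at least 500 genes, at resolution 1 or with no minimum on UMIs.

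The level of conventional DC 2-like over monocyte/macrophage-like cells in the shRFP library was 5.59, against 5.11 with TMM factors, 5.90 over UMIs outside the 9 genes, 5.32 without doublet removal, 5.04 with at least 500 genes, 5.71 with class II genes kept in the clustering, 5.98 as a mean over cells, 5.84 with clusters weighted alike and 5.48 at resolution 1. In the shSdc1 library it was 5.03, against 4.53 with TMM factors, 5.32 over UMIs outside the 9 genes, 4.88 without doublet removal, 4.93 under 5% mitochondrial UMIs, and 4.81 both with clusters weighted alike and at resolution 1. The H2-Aa to H2-Ab1 ratio of migratory DC-like cells was 1.41 in the shRFP library with at least 500 genes, and 2.11 in both libraries with class II genes kept in the clustering. Monocyte/macrophage-like clusters with intervals above 1 were 7 of 11, against 4 of 6 at resolution 1, 7 of 9 with class II genes kept in the clustering and 7 of 10 with another seed. The main resolution of 1.5 was itself chosen after the result of resolution 1 had been seen. Giving resolution 1 as an alternative, the sub-cluster and the immunoglobulin setting were likewise chosen after seeing the data. Depth limited H2-Oa, Ciita and H2-DMb2 outside the conventional DC, and every result rests on 1 library per group.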
